A study of Mus musculus with 12 samples.

Results

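Induced regulatory T cells of the CD8 lineage were set against those of the CD4 lineage, cell type against cell type, across all genes measured. The comparison used 6 of the 12 Affymetrix arrays in the series, chosen by their titles: 3 arrays of CD8 cells and 3 of CD4 cells that expressed Foxp3, the transcription factor that defines regulatory T cells. It covered 22180 genes, none of them selected beforehand. The other 6 arrays, from control cells of the same lineages, served for the same lineage comparison without Foxp3.

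The T cells came from C57BL6 mice with a Foxp3-GFP reporter, in which green fluorescence marks cells that transcribe Foxp3. In every group, 200000 resting T cells per well were stimulated by 20000 CD11c dendritic cells of BALB/c mice, so the T cells responded to foreign tissue antigens. Both Foxp3-positive groups received IL-2 and TGF-β at 5 ng/mL each and 40 nM retinoic acid. They were sorted as GFP-positive after 4 days for CD8 and 5 days for CD4 cells. The CD8 and CD4 control groups received IL-2 alone at 5 ng/mL for the same number of days, and their GFP-negative cells were sorted. Each group had 3 arrays, replicates A, B and C, and values of a group are given in that order. Cells were pooled before staining for CD4, CD8 and CD25, and no label ties a replicate to a culture or animal of its own. The p-values thus measure only how these samples spread, which may be technical, and the precision is limited by 3 arrays a group. The lineages also differed by a day of culture, so lineage and culture time cannot be told apart. The labels do not say whether cells already positive for GFP were removed before culture.

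Naive T cells take on Foxp3 when their receptor is engaged in the presence of TGF-β, and retinoic acid strengthens that induction. The CD4 and CD8 lineages are set earlier, in the thymus, where the factor ThPOK (gene Zbtb7b) maintains helper identity and RUNX3 maintains cytotoxic identity and silences Cd4. Cells of the CD8 lineage are known for granzymes, perforin and NK-type receptors, and those of the CD4 lineage for CD40 ligand and helper cytokines. Foxp3-positive CD4 cells restrain immune responses, and CD8 cells can be induced to express the same factor.

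RUNX proteins bind the core TGTGGT, which is written ACCACA on the other strand. The promoters of 2 granzyme genes and 2 killer lectin-like receptor genes, all higher in CD8 Foxp3-positive cells, are shown because they were found to hold this core, in capitals. Each is the 250 bases before the transcription start in RefSeq, build GRCm38.p6, read 5′ to 3′ in the direction of the gene. All 4 lie on the minus strand, Gzmb at chr14:56262335-56262584, Gzmc at chr14:56234658-56234907, Klrk1 at chr6:129623865-129624114 and Klrc1 at chr6:129678974-129679223.
Gzmb: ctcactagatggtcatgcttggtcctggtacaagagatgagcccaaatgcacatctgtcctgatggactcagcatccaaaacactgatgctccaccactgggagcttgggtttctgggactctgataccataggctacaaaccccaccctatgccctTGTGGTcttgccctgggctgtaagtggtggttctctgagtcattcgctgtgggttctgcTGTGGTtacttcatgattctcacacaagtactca
Gzmc: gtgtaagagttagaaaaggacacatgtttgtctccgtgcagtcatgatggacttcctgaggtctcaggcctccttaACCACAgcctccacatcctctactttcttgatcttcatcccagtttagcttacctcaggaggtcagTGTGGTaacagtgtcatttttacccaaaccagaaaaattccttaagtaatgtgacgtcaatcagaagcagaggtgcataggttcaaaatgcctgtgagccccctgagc
Klrk1: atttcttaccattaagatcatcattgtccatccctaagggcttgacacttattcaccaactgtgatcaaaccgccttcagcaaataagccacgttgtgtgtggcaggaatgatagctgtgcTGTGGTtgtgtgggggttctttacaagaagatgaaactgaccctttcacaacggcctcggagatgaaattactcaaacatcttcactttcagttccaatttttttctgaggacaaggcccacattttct
Klrc1: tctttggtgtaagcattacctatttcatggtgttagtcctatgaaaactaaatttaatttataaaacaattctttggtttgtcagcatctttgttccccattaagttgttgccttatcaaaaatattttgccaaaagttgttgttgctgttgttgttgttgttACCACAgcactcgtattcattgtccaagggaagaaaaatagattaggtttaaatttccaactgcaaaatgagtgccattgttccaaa
Counted back from the start, the cores begin at -93 and -34 in Gzmb, at -174 (other strand) and -108 in Gzmc, at -129 in Klrk1 and at -87 (other strand) in Klrc1. Of the 129 genes called at least 2-fold higher in CD8 cells, 99 had RefSeq promoters, 127 in number, and 36 of these promoters (28.3%) held the core on either strand. The share was 12% of the 20611 promoters of all measured genes and 12.4% (12 of 97) for the genes at least 2-fold higher in CD4 cells. The CD8-high promoters had a median GC content of 50.8%, against 55.6% for all genes and for the CD4-high genes, and the part of this difference in the shares was not tested. The GATA motif AGATAA stood in 10.2%, 11.3% and 8.78% of CD8-high, CD4-high and all promoters, and the T-box motif AGGTGT in 15%, 12.4% and 11.2%. Those shares lay closer together than the shares of the RUNX core. A match describes letters in this window and is neither a known site nor a cause.

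The arrays matched their labels at the lineage genes. Cd8b1, a chain of the CD8 coreceptor, stood at 11.96, 11.95 and 12.01 (log2 expression) on the CD8 arrays and at 6.02, 6.05 and 6.45 on the CD4 arrays. Its difference of 5.80 ± 0.14 (log2, ± standard error of the limma model), or 55.8-fold, had an adjusted p of 1.32e-10. Cd8a, the other coreceptor chain, stood at 12.58, 12.53 and 12.52 against 7.34, 7.11 and 8.16, a 32.1-fold difference (5.01 ± 0.30, adjusted p = 1.59e-06). Neither gene's arrays overlapped, and replicate C was the highest CD4 array for each. Cd4, the helper coreceptor, stood at 4.93, 5.43 and 5.16 on the CD8 arrays and at 11.87, 11.84 and 12.05 on the CD4 arrays, 107-fold apart (-6.74 ± 0.22, adjusted p = 4.59e-09). Cd40lg, the ligand by which helper T cells activate B cells, stood at 4.34, 4.39 and 4.01 against 6.79, 7.06 and 7.13 (-2.74 ± 0.13, adjusted p = 1.13e-07). The lineages were far apart at these genes on every array. Mean levels close to or under 5.60, which is the median over all genes, may be array background, so folds against them are ratios of signal and not of RNA amount. In RNA of whole populations, fewer cells of a type and less RNA per cell cannot be told apart.

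Foxp3 itself did not pass the test between the lineages. It stood at 12.45, 12.46 and 12.53 in CD8 and at 12.44, 12.39 and 12.49 in CD4 cells, a difference of 0.04 with a 95% interval from -0.45 to 0.53 (adjusted p = 0.964). The interval rests on a spread pooled over all 12 arrays, controls included. It is wider than the Foxp3-positive values, from 12.39 to 12.53, would show by themselves. The arrays of the groups overlapped, and both groups had been sorted on the reporter of this gene. Zbtb7b, which encodes ThPOK, was lower in CD8 cells (-0.63 ± 0.09, adjusted p = 0.00154). Runx3 stood at 10.34, 10.26 and 10.40 in CD8 and at 8.96, 8.72 and 9.60 in CD4 cells, 2.36-fold higher in CD8 (1.24 ± 0.17, adjusted p = 9.84e-04). Runx1, its relative, was lower in CD8 cells (-0.72 ± 0.12, adjusted p = 0.00326). Each lineage thus had the higher level of its own factor, Runx3 or Zbtb7b, on every array.

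Across genes, 1044 of 22180 (4.71%) differed at an adjusted p under 0.05, 534 (2.41%) higher in CD8 and 510 (2.3%) higher in CD4 cells. These shares are the background for the counts of called list members below. The lists were chosen with earlier results known, so their shares are a description. With a difference of at least 2-fold besides, 129 genes (0.582%) were higher in CD8 and 95 (0.428%) in CD4 cells. At an unadjusted p under 0.05, 1794 genes (8.09%) were higher in CD8 and 1855 (8.36%) in CD4 cells, 16.5% together, which is the background for the unadjusted counts given below. Among all genes, 22.7% had arrays that did not overlap between the lineages, so non-overlap alone is frequent. The number called fell to 674 without CD8 Foxp3-positive replicate B and to 687 without CD4 Foxp3-positive replicate A. Genes higher in CD8 fell to 341 and 347 in those fits and to 355 without CD4 Foxp3-positive replicate B, and genes higher in CD4 fell to 333 without CD8 Foxp3-positive replicate B. Arrays of one lineage correlated with each other at r = 0.9937 to 0.9945 (CD8) and 0.9916 to 0.9942 (CD4) across genes, and arrays of different lineages at 0.9862 to 0.9905. Genes are not independent replicates, and these values are a description.

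The CD4 arrays did not lie evenly, with replicates C and B apart in opposite directions. Of the 129 genes at least 2-fold higher in CD8 cells, 88 (68.2%) had their highest CD4 value on replicate C, compared with 32.2% of all genes. Of the 95 genes at least 2-fold higher in CD4 cells, 58 (61.1%) had their lowest CD4 value on it, compared with 33.9% of all genes. Replicate B was the lowest CD4 array for 80 (62%) of the 129 genes, compared with 37.3% of all genes. It was the highest for 48 (50.5%) of the 95, compared with 32.5% of all genes. Gzmb signal, unlogged, was 9.66%, 6.11% and 29.1% of the CD8 mean on CD4 replicates A, B and C, while Cd8b1 was 1.61%, 1.65% and 2.17% and Cd8a 2.72%, 2.32% and 4.79% of it. H2-Ab1, an MHC class II chain of antigen-presenting cells, also varied among these arrays, at 8.73, 8.28 and 9.85. It belongs to a list of 19 dendritic cell markers, whose mean level ranged only from 6.32 to 6.58 over the same CD4 arrays. The H2-Ab1 values thus do not describe the list as a whole. Without replicate C, 969 genes were called, 800 of them among the 1044, and 267 were called at least 2-fold apart instead of 224. Without replicate B, 703 were called, 664 of them among the 1044, and 196 at least 2-fold apart. The cause of either array's position was not tested.

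**Figure D1:**
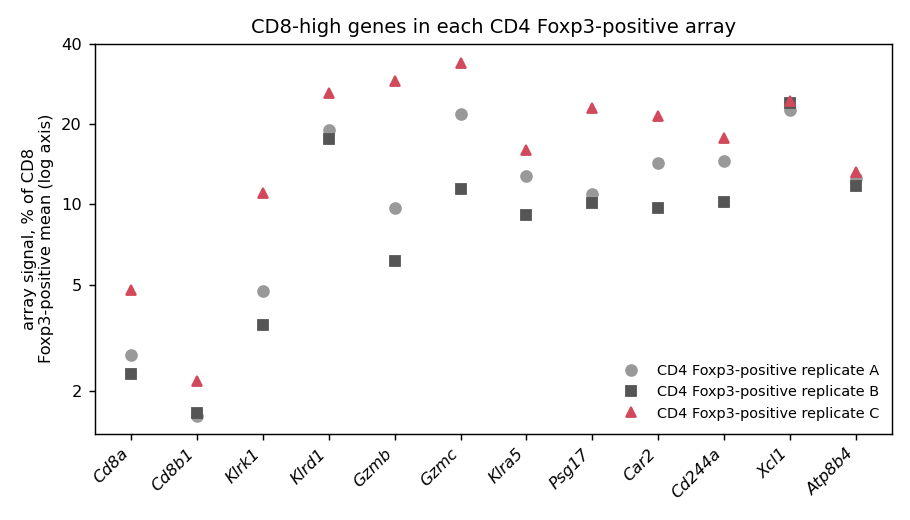
Unlogged signal of the 12 genes with the largest CD8-high differences, on each CD4 Foxp3-positive array, as a percent of the mean over the CD8 Foxp3-positive arrays (log axis). Replicate C, in red, lies highest for each of the 12 genes, from 2.17% for Cd8b1 to 33.9% for Gzmc; for Xcl1 the 3 arrays lie between 22.6% and 24.4%.

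Several NK-type receptors, Klrk1, Klra5, Cd244a and Klrd1 the farthest apart, were higher in CD8 cells. Of 27 measured NK-type and killer lectin-like receptor genes, 12 (44.4%) were called higher in CD8 cells by limma and 0 higher in CD4 cells. At an unadjusted p under 0.05 it was 17 and 0. Of the 27, 15 did not pass, and the median difference was 0.82, against -0.01 over all genes. Klrk1, the activating receptor NKG2D, stood at 9.00, 9.14 and 8.76 in CD8 and at 4.57, 4.15 and 5.78 in CD4 cells, 17.6-fold apart (4.13 ± 0.30, adjusted p = 6.86e-06). Its CD4 levels reached 5.60 on replicate C alone. Klrd1, the CD94 chain that pairs with NKG2 receptors, stood at 11.62, 11.51 and 11.51 against 9.16, 9.04 and 9.62 (2.27 ± 0.20, adjusted p = 2.9e-05). This gene was thus well above the median level in both lineages, without overlap. Klrc1, its inhibitory NKG2A partner, stood at 6.66, 7.43 and 6.40 against 5.58, 5.00 and 4.88 (1.68 ± 0.27, adjusted p = 0.00267).

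Klra5, a Ly49 receptor, stood at 9.31, 9.59 and 9.33 in CD8 and at 6.44, 5.96 and 6.77 in CD4 cells, 8.13-fold apart (3.02 ± 0.21, adjusted p = 5.04e-06). Cd244a, the SLAM-family receptor 2B4, stood at 9.43, 9.37 and 9.18 against 6.55, 6.03 and 6.84 (2.85 ± 0.25, adjusted p = 3.56e-05). The lineages did not overlap at either gene. Cd160, which binds HVEM, was 3.49-fold higher in CD8 cells (1.80 ± 0.19, adjusted p = 1.24e-04). Crtam, an adhesion receptor of activated cytotoxic cells, was 3.45-fold higher (1.79 ± 0.20, adjusted p = 1.79e-04). The remaining called members were Klrc2, Klrc3 (1.40 ± 0.17), Klre1 (1.00 ± 0.17), Cd226 (1.01 ± 0.13) and Lilrb4a, and the first 3 had means below 5.60 in both lineages. The Klrc2 call (1.43, adjusted p = 0.019) was lost without any of CD8 or CD4 Foxp3-positive replicates A and B (adjusted p up to 0.0883), and that of Lilrb4a (0.82, adjusted p = 0.0155) without CD8 replicate B or CD4 replicates A or B (adjusted p up to 0.0704). Killer lectin-like receptors are close copies of each other, so probes of one gene can read another.

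**Figure D2:**
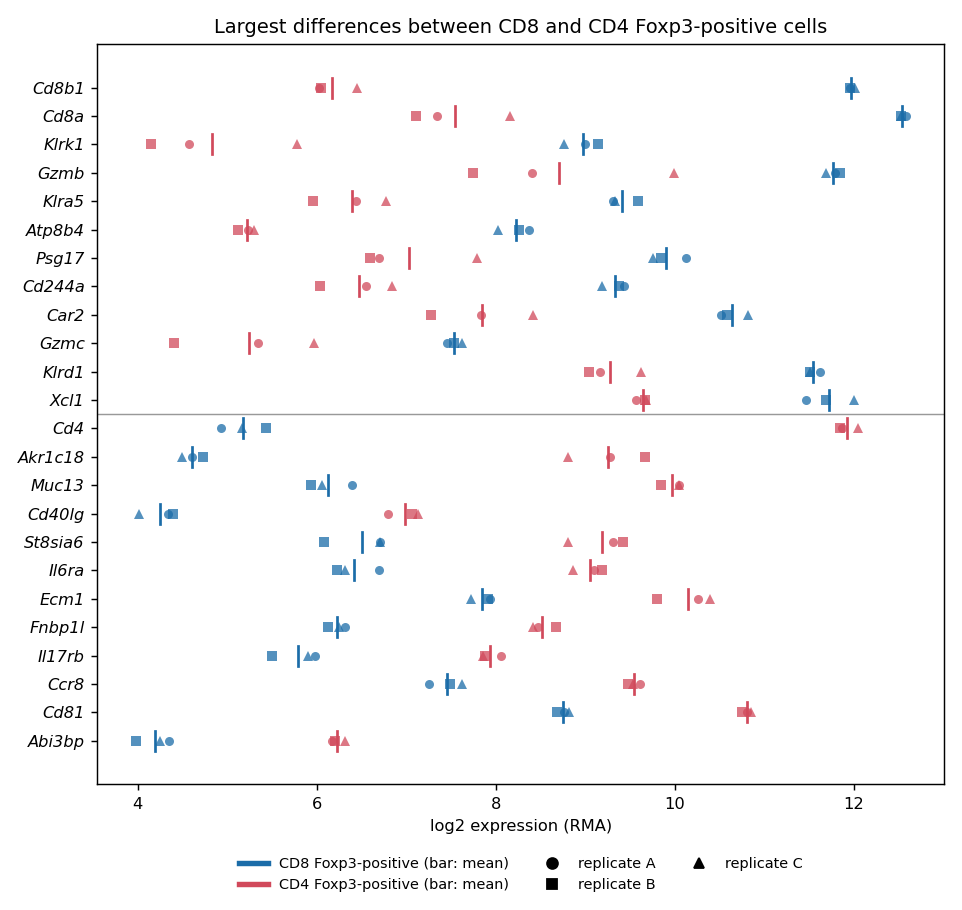
Log2 expression on the 6 Foxp3-positive arrays for the 12 genes with the largest differences in each direction; symbols mark replicates and vertical bars group means. Non-overlap of the arrays between the lineages was a condition for choosing these genes and is not a result. The CD4 values of Gzmb spread the most, from 7.74 to 9.99.

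Gzmb, Gzmc, Gzma, Prf1 and Fasl, effectors by which cytotoxic cells kill, were higher in CD8 cells. Of 29 granzyme and cytotoxic machinery genes, 10 were called higher in CD8 and 2 higher in CD4 cells (41.4% together). The other 17 did not pass, and the median difference was 0.09. Gzmb, the granzyme that starts apoptosis in target cells, stood at 11.79, 11.84 and 11.69 in CD8 and at 8.40, 7.74 and 9.99 in CD4 cells. The difference was 3.06 ± 0.39, or 8.36-fold (adjusted p = 5.2e-04), and 3.70 (adjusted p = 2.87e-07) without CD4 replicate C. Gzmc, its chromosomal neighbour, stood at 7.45, 7.53 and 7.62 against 5.34, 4.40 and 5.97 (2.30 ± 0.32, adjusted p = 0.0011). CD8 arrays lay close together for both granzymes, while CD4 arrays spread widely, replicate C highest and B lowest. Gzma, a tryptase of the same granules, stood at 10.21, 10.34 and 9.97 against 8.32, 7.20 and 9.15 (1.95 ± 0.37, adjusted p = 0.00755). Granzymes are close copies, which makes each of these values uncertain.

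Prf1, the pore-forming perforin, stood at 8.83, 8.89 and 8.84 in CD8 and at 6.98, 7.31 and 7.23 in CD4 cells, 3.21-fold apart (1.68 ± 0.29, adjusted p = 0.0039). Fasl, the ligand of the death receptor Fas, stood at 9.35, 9.42 and 9.73 against 7.39, 7.22 and 7.81, 4.08-fold apart (2.03 ± 0.17, adjusted p = 1.92e-05). Neither gene's arrays overlapped, and each CD4 array lay above 5.60. Slamf7, a receptor of activated cytotoxic and NK cells, was 3.85-fold higher in CD8 cells (1.94 ± 0.20, adjusted p = 1.01e-04). Nkg7, a granule membrane protein needed for degranulation, was 2.28-fold higher (1.19 ± 0.14, adjusted p = 3.09e-04). Cst7, a cystatin (0.65 ± 0.11, adjusted p = 0.00386), and the cathepsins Ctsl (0.72, adjusted p = 0.0121) and Ctsc (0.39, adjusted p = 0.0196) completed the 10. The 2 higher in CD4 cells were Stx11, a granule fusion protein (-0.49, adjusted p = 0.0425), and Tnfsf10, the death ligand TRAIL (-0.42, adjusted p = 0.0452). Both of these calls were lost without any single Foxp3-positive array (adjusted p up to 0.145 and 0.169). That of Ctsc was lost without any but CD8 replicate C, and with the 6 Foxp3-positive arrays alone (up to 0.0961). That of Ctsl was lost without CD4 replicate A (0.058). Srgn, the granule proteoglycan serglycin and the brightest member over the 12 arrays that did not pass, stood at 12.25 ± 0.05 and 12.02 ± 0.17 (mean ± SD, n = 3; adjusted p = 0.239).

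Several of the largest CD8-high genes belong to neither group. Xcl1, the chemokine that attracts cross-presenting dendritic cells, stood at 11.46, 11.69 and 12.00 in CD8 and at 9.57, 9.66 and 9.68 in CD4 cells, 4.23-fold apart (2.08 ± 0.17, adjusted p = 1.84e-05). The gene was bright in both lineages, and here CD4 replicate C lay close to A and B. Car2, a carbonic anhydrase, stood at 10.51, 10.58 and 10.82 against 7.83, 7.27 and 8.42 (2.80 ± 0.27, adjusted p = 7.27e-05). Psg17, a pregnancy-specific glycoprotein with near-identical relatives, stood at 10.12, 9.84 and 9.75 against 6.70, 6.59 and 7.79 (2.88 ± 0.26, adjusted p = 3.51e-05). Every CD8 value of both genes lay above every CD4 value. Atp8b4, a phospholipid flippase, stood at 8.37, 8.26 and 8.02 against 5.23, 5.12 and 5.30, 8-fold apart (3.00 ± 0.12, adjusted p = 4.02e-08). Over the whole CD8 lineage list, 14 of 20 genes were called higher in CD8 and 1 in CD4 cells (75% together), with a median of 1.26. Its brightest uncalled member was Ctsw, the lymphocyte cathepsin W, at 12.60 ± 0.09 and 12.33 ± 0.08 (mean ± SD, n = 3; adjusted p = 0.219). The list's median was set in part by the coreceptor and NK-type genes described above, since lists overlap.

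Genes higher in CD4 Foxp3-positive cells included receptors for cytokines and chemokines. Il6ra, the receptor chain for IL-6, stood at 6.69, 6.22 and 6.32 in CD8 and at 9.10, 9.18 and 8.86 in CD4 cells, 6.21-fold apart (-2.63 ± 0.15, adjusted p = 6.49e-07). Il17rb, part of the IL-25 receptor, stood at 5.98, 5.50 and 5.90 against 8.06, 7.88 and 7.86 (-2.14 ± 0.15, adjusted p = 5.48e-06). Ccr8, a chemokine receptor found on tissue regulatory T cells, stood at 7.25, 7.49 and 7.62 against 9.61, 9.48 and 9.53 (-2.09 ± 0.14, adjusted p = 4.27e-06). These 3 receptors separated the lineages without overlap, and the CD8 levels of Il6ra and Il17rb lay near 5.60. Ccr6, the receptor for CCL20, stood at 5.62, 5.09 and 5.61 against 7.34, 7.44 and 7.05 (-1.84 ± 0.18, adjusted p = 7.11e-05). Its ligand Ccl20 was also higher in CD4 cells, at 5.35 ± 0.14 against 6.09 ± 0.13 (mean ± SD, n = 3; -0.74 ± 0.11, adjusted p = 0.00135).

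The largest CD4-high gene after Cd4 was Akr1c18, a steroid dehydrogenase that inactivates progesterone. It stood at 4.61, 4.73 and 4.49 in CD8 and at 9.28, 9.66 and 8.80 in CD4 cells (-4.64 ± 0.26, adjusted p = 6.49e-07). Muc13, a cell surface mucin, stood at 6.39, 5.93 and 6.06 against 10.04, 9.84 and 10.04, 14.3-fold apart (-3.84 ± 0.17, adjusted p = 1.13e-07). St8sia6, a sialyltransferase, stood at 6.71, 6.08 and 6.71 against 9.31, 9.42 and 8.81 (-2.68 ± 0.20, adjusted p = 6.64e-06). The CD4 arrays of all 3 genes lay far above the highest CD8 array. Ecm1, a secreted matrix protein, stood at 7.93, 7.91 and 7.72 against 10.26, 9.80 and 10.39 (-2.30 ± 0.14, adjusted p = 1.96e-06). Cd81, a tetraspanin, stood at 8.76, 8.68 and 8.82 against 10.81, 10.75 and 10.85 (-2.05 ± 0.19, adjusted p = 5.83e-05). Both were bright in both lineages. Fnbp1l, a membrane-curvature adaptor, was 4.89-fold higher in CD4 cells (-2.29 ± 0.12, adjusted p = 4.2e-07), and Abi3bp, a matrix-binding protein, 4.1-fold (-2.04 ± 0.12, adjusted p = 1.51e-06).

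Of 20 CD4 lineage genes, 11 were called higher in CD4 and 1 higher in CD8 cells (60% together), with a median difference of -0.82. Besides the genes above, they included Cd28, the costimulatory receptor (-1.19 ± 0.11, adjusted p = 6.85e-05), and Gata3, the type 2 helper factor (-0.85 ± 0.12, adjusted p = 9.84e-04). Cd5, a brake on receptor signalling, stood at 10.19 ± 0.19 in CD8 and 11.29 ± 0.08 in CD4 cells (mean ± SD, n = 3; -1.10 ± 0.11, adjusted p = 9.59e-05). The exception was Cxcr5, the receptor that guides follicular helper cells. It stood at 9.19, 9.66 and 9.33 in CD8 and at 8.03, 8.02 and 7.08 in CD4 cells, 3.21-fold higher in CD8 (1.68 ± 0.23, adjusted p = 9.84e-04). Its lineages did not overlap, in the direction opposite to the list.

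Foxp3, Il2ra and Ctla4 did not pass the test, while other genes of the regulatory programme did. Of 36 regulatory signature genes, 10 were called higher in CD4 and 3 higher in CD8 cells, 36.1% together against 4.71% of all genes, and the median difference was -0.11. At an unadjusted p under 0.05, 14 were higher in CD4 and 9 in CD8 cells. Il2ra, the CD25 chain of the IL-2 receptor, stood at 12.88, 12.86 and 12.78 in CD8 and 12.85, 12.80 and 12.81 in CD4 cells, a difference of 0.02 (95% interval -0.19 to 0.22). Ctla4, the inhibitory receptor that competes with CD28, differed by 0.27 (95% interval -0.06 to 0.60, adjusted p = 0.422). The CD8 arrays of Ctla4 were all above the CD4 arrays, and the interval still held 0. Ikzf2, which encodes Helios, differed by 0.33 (95% interval -0.50 to 1.16), with arrays from 9.00 to 9.95 in CD8 and 8.73 to 9.76 in CD4 cells. Nt5e, the CD73 enzyme that makes adenosine, differed by -0.26 (95% interval -0.63 to 0.11), and Tnfrsf18, the receptor GITR, by -0.25 (95% interval -0.53 to 0.03). Lrrc32, which displays latent TGF-β as GARP, differed by -0.46 (95% interval -0.89 to -0.04, adjusted p = 0.254 over all genes). A missing call does not show that the lineages are alike, and the interval of Ikzf2 allows a difference of over 2-fold.

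Regulatory genes that did pass ran in both directions. Gpr83, a neuropeptide receptor of regulatory T cells, stood at 8.31, 8.33 and 8.24 in CD8 and at 9.92, 9.99 and 9.29 in CD4 cells (-1.44 ± 0.16, adjusted p = 2.4e-04). Nrp1, a coreceptor for semaphorins and TGF-β, stood at 9.72, 9.53 and 9.68 against 10.90, 10.84 and 10.40 (-1.07 ± 0.14, adjusted p = 7.34e-04). Penk, the enkephalin precursor, stood at 4.99, 5.30 and 5.61 against 7.53, 7.17 and 7.26 (-2.02 ± 0.15, adjusted p = 8.27e-06). All 3 were higher on every CD4 array. Tnfrsf4, the receptor OX40, was 2.22-fold higher in CD4 cells (-1.15 ± 0.15, adjusted p = 5.49e-04), Izumo1r, the folate receptor relative FR4, 2.16-fold (-1.11 ± 0.12, adjusted p = 1.66e-04), and Bach2 1.85-fold (-0.89 ± 0.14, adjusted p = 0.00228). Irf4 was 1.62-fold higher (-0.69 ± 0.14, adjusted p = 0.0121), a call lost without CD4 replicate A (adjusted p = 0.0537). Higher in CD8 cells were Tigit, an inhibitory receptor for CD155, Itgae and Tnfrsf1b. Tigit stood at 11.03, 11.01 and 11.29 against 9.85, 9.53 and 10.22 (1.25 ± 0.16, adjusted p = 5.2e-04), and Itgae, the CD103 integrin chain that binds E-cadherin, at 12.16, 12.12 and 12.26 against 11.03, 11.09 and 11.34 (1.03 ± 0.12, adjusted p = 3.34e-04). The CD8 arrays were the higher at both, without overlap.

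Genes by which T cells restrain others included several with large differences. Of 31 suppressive mediators, 8 were called higher in CD8 and 3 higher in CD4 cells (35.5% together), with a median of 0.17. Tgfb3, a TGF-β isoform, stood at 8.58, 8.98 and 8.66 in CD8 and at 6.92, 6.97 and 7.49 in CD4 cells, 3.06-fold apart (1.61 ± 0.24, adjusted p = 0.00157). Havcr2, the checkpoint receptor TIM-3, stood at 6.94, 6.98 and 7.19 against 5.12, 5.15 and 5.32 (1.84 ± 0.12, adjusted p = 3.16e-06). Fgl2, a secreted inhibitor of dendritic cells, stood at 10.36, 10.56 and 10.23 against 8.98, 8.68 and 9.44 (1.35 ± 0.20, adjusted p = 0.00157). CD8 values were higher on every array of these 3 genes, and Havcr2 in CD4 cells lay below 5.60. Il10, the inhibitory cytokine, stood at 6.55, 6.73 and 7.08 against 5.35, 4.75 and 6.35 (1.30 ± 0.30, adjusted p = 0.024). This call was lost without CD8 replicate B or C or CD4 replicate A or B, and with the 6 Foxp3-positive arrays alone. Its adjusted p rose to 0.11 at most, and its difference ranged from 0.93 to 1.74 over all alternatives. Tgfb1, the main TGF-β isoform, did not pass (-0.11, 95% interval -0.33 to 0.10). Pdcd1, which encodes PD-1, was higher in CD4 cells (-0.57 ± 0.12, adjusted p = 0.0186). This call was lost without any of CD8 or CD4 Foxp3-positive replicates A and B, and with the 6 Foxp3-positive arrays alone (adjusted p up to 0.0832).

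**Figure D3:**
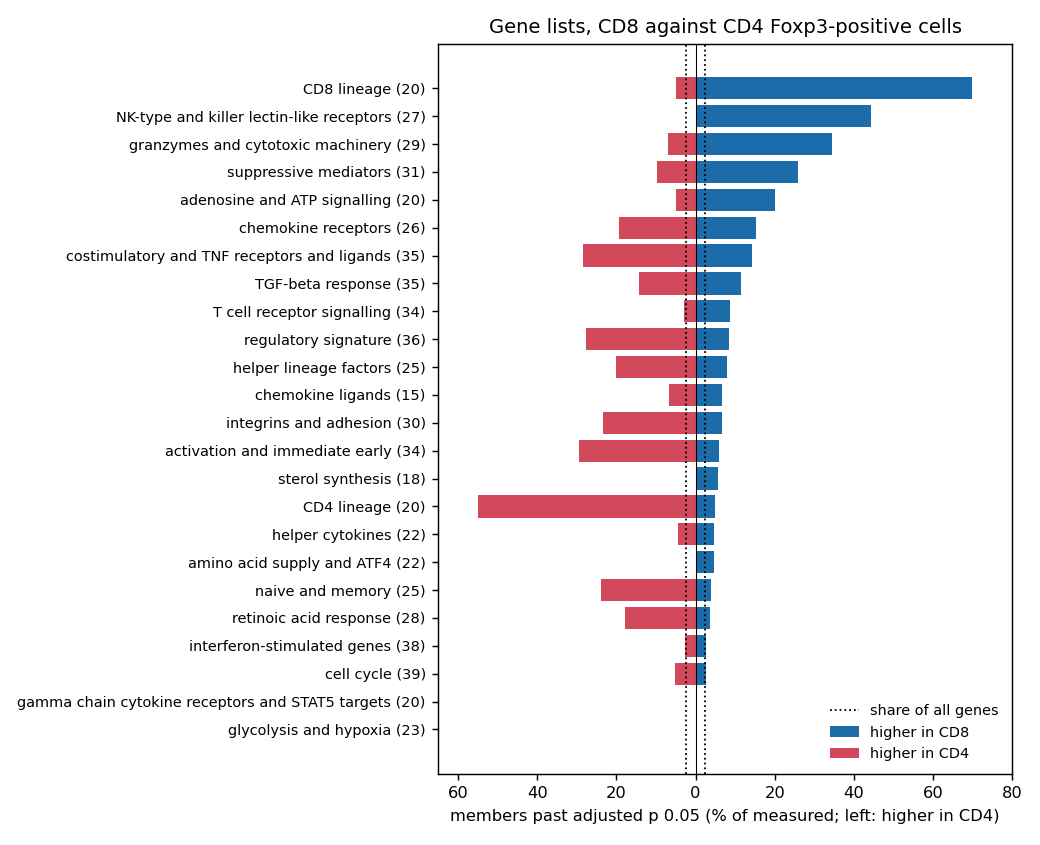
Share of the measured members of each gene list called higher in CD8 (right, blue) or in CD4 Foxp3-positive cells (left, red), with list sizes in brackets; dotted lines mark the shares over all genes, 2.41% and 2.3%. The CD8 lineage, NK-type and granzyme lists reach farthest to the right, and the CD4 lineage list farthest to the left.

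Genes listed as responsive to TGF-β or retinoic acid, which both cultures received, were compared next. The values are levels between the lineages and not changes from control cells. Of 35 TGF-β response genes, 4 were called higher in CD8 and 5 higher in CD4 cells (25.7% together, median -0.06). Apart from Tgfb3, Itgae and Ccr8, they included Smad3, a mediator of TGF-β signals, which was higher in CD4 cells (-0.66 ± 0.12, adjusted p = 0.00624). Of 28 retinoic acid response genes, 1 was called higher in CD8 and 5 in CD4 cells (21.4% together, median -0.21). Gpr15, which directs T cells to the colon, stood at 6.51, 6.38 and 6.22 in CD8 and at 7.78, 7.63 and 7.77 in CD4 cells (-1.36 ± 0.12, adjusted p = 3.04e-05). Ccr9, which directs them to the small intestine, stood at 9.71, 9.46 and 9.56 against 8.83, 8.54 and 9.23 (0.71 ± 0.17, adjusted p = 0.0362). These gut homing receptors thus differed in opposite directions on every array. The Ccr9 call was lost without any single Foxp3-positive array but CD4 replicate C, and without CD4 control replicate A or B. It was also lost with the 6 Foxp3-positive arrays alone (adjusted p up to 0.146). Cyp26b1, which degrades retinoic acid, was 1.94-fold higher in CD4 cells (-0.95 ± 0.18, adjusted p = 0.00892), and Stra6, a retinol transporter, 2.53-fold (-1.34 ± 0.20, adjusted p = 0.00179). Itgb7, the gut homing integrin chain that also pairs with CD103, stood at 10.83 ± 0.08 in CD8 and 10.59 ± 0.23 in CD4 cells (mean ± SD, n = 3; adjusted p = 0.372).

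Among 26 chemokine receptors, 4 were called higher in CD8 and 5 higher in CD4 cells (34.6% together), with a median of 0.00. Cxcr3, the receptor for interferon-induced chemokines, stood at 9.11, 9.37 and 9.45 in CD8 and at 7.50, 7.32 and 8.15 in CD4 cells, 3.14-fold apart (1.65 ± 0.18, adjusted p = 1.81e-04). Cxcr6, the receptor for CXCL16, was 1.94-fold higher in CD8 cells (0.96 ± 0.12, adjusted p = 4.13e-04), and Cxcr5 and Ccr9 were the other 2. Ccr4, a receptor of type 2 helper and regulatory cells, was 1.93-fold higher in CD4 cells (-0.95 ± 0.18, adjusted p = 0.00916). S1pr1, which guides lymphocytes out of lymph nodes, was 2.05-fold higher in CD4 cells (-1.03 ± 0.19, adjusted p = 0.00578). Cxcr4, the brightest receptor that did not pass, stood at 9.37 ± 0.09 and 9.33 ± 0.30 (mean ± SD, n = 3; adjusted p = 0.952). Of 30 integrin and adhesion genes, 7 were called higher in CD4 cells, Cd81 among them, and 2 higher in CD8 cells (30% together, median -0.13). Those 2 were Itgae and Itga2. The Itga2 call (1.04 ± 0.22, adjusted p = 0.0139) was lost without CD4 replicate A or CD8 replicate C, and with the 6 Foxp3-positive arrays alone (adjusted p up to 0.0682).

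Costimulatory and TNF family genes split by receptor. Of 35 members, 5 were called higher in CD8 and 10 higher in CD4 cells (42.9% together, median -0.27). Tnfrsf8, the receptor CD30, stood at 8.16, 8.29 and 7.78 in CD8 and at 6.31, 6.02 and 6.49 in CD4 cells, 3.48-fold apart (1.80 ± 0.22, adjusted p = 3.54e-04). Tnfrsf13c, the survival receptor for BAFF, was 2.02-fold higher in CD8 cells (1.02 ± 0.14, adjusted p = 0.00101). Fasl was the largest of the 5, and Cd40lg the largest of the 10. Tnfrsf9, the receptor 4-1BB, was the brightest member over the 12 arrays that did not pass, at 10.93 ± 0.03 and 10.32 ± 0.50 (mean ± SD, n = 3, adjusted p = 0.0868). It was called without CD4 replicate C (0.84, adjusted p = 0.00559) and when dim genes were filtered out. Of 34 activation and immediate early genes, 10 were called higher in CD4 and 2 higher in CD8 cells (35.3% together, median -0.23). Nr4a1, an early gene of receptor signalling, stood at 8.87, 8.75 and 9.49 in CD8 and at 9.99, 10.11 and 9.99 in CD4 cells (-0.99 ± 0.18, adjusted p = 0.00512). Nfkbia, the NF-κB inhibitor, was 1.92-fold higher in CD4 cells (-0.94 ± 0.14, adjusted p = 0.00183), and Egr2 1.69-fold (-0.76 ± 0.15, adjusted p = 0.00871). The 2 exceptions were Nr4a2 (0.86 ± 0.15, adjusted p = 0.00402) and Cd69, an early activation marker (0.96 ± 0.22, adjusted p = 0.0224). The Cd69 call was lost without any of CD8 or CD4 Foxp3-positive replicates A and B (adjusted p up to 0.1).

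Of 34 T cell receptor signalling genes, 3 were called higher in CD8 and 1, Cd5, higher in CD4 cells, 11.8% together against 4.71% of all genes (median 0.04). At an unadjusted p under 0.05, 11 were higher in CD8 and 5 in CD4 cells. Cd3e, a chain of the receptor complex, stood at 12.93 ± 0.01 and 12.70 ± 0.07 (mean ± SD, n = 3; adjusted p = 0.208). Sla2, an adaptor that damps the signal, was 1.79-fold higher in CD8 cells (0.84 ± 0.12, adjusted p = 0.00131), and Themis 1.61-fold (0.68 ± 0.12, adjusted p = 0.00551). The third was Ptpn22 (0.52 ± 0.11, adjusted p = 0.0125), whose call was lost without CD8 replicate C or CD4 replicate A or B (adjusted p up to 0.0619). Of 25 naive and memory genes, 1, Dapl1, was called higher in CD8 and 6 higher in CD4 cells (28% together, median -0.11). Klf2, which maintains lymphocyte traffic, stood at 8.35, 7.60 and 8.18 against 9.16, 9.19 and 9.26 (-1.16 ± 0.17, adjusted p = 0.00152). Igfbp4 was 2.65-fold higher in CD4 cells (-1.40 ± 0.20, adjusted p = 0.00122), and Lef1 1.46-fold (-0.55 ± 0.09, adjusted p = 0.00359).

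Of 25 helper lineage factors, 2 were called higher in CD8 and 5 higher in CD4 cells (28% together, median -0.13). Tbx21, the type 1 factor T-bet, differed by 0.13 (95% interval -0.28 to 0.54), and Eomes, its relative, by -0.07 (95% interval -0.56 to 0.41). Of 22 helper cytokines, Il10 alone was called higher in CD8 and Csf2 alone higher in CD4 cells (9.09% together, median -0.12). Ltb, lymphotoxin beta, was the brightest member that did not pass, at 11.27 ± 0.04 and 11.54 ± 0.07 (mean ± SD, n = 3; adjusted p = 0.103). Csf2, which encodes GM-CSF, stood at 6.29, 6.01 and 6.18 against 6.89, 7.43 and 6.94 (-0.93 ± 0.15, adjusted p = 0.00296), a call lost when the gene's clusters were averaged (-0.36, adjusted p = 0.0582). Ifng, interferon-γ, lay below 5.60 on all 6 arrays. Of 39 cell cycle genes, 1 was called higher in CD8 and 2 higher in CD4 cells (7.69% together, median -0.09). They were Ccnd1 in CD8 and Cdkn2c and E2f2 in CD4 cells, and with Fdps below they lost their calls without several single arrays (adjusted p from 0.0402 to 0.0499, rising to between 0.142 and 0.189 at most). Those of Ccnd1, E2f2 and Fdps were also lost with the 6 Foxp3-positive arrays alone. Pcna, the replication clamp, stood at 11.52 ± 0.06 and 11.58 ± 0.06 (mean ± SD, n = 3; adjusted p = 0.829). None of 23 glycolysis and hypoxia genes (median -0.01) and none of 20 γ-chain cytokine receptor and STAT5 target genes (median -0.09) passed limma's test, and 2 genes of each list did at an unadjusted p under 0.05, 8.7% and 10% where all genes gave 16.5%. Among 18 sterol synthesis genes 1 was called (5.56%) and among 22 amino acid supply genes 1 (4.55%), close to the 4.71% of all genes. Both, Fdps and Sesn2, were higher in CD8 cells. Of 20 adenosine and ATP signalling genes, 4 were called higher in CD8 and 1 in CD4 cells (25% together). The 1 was P2ry1 (2-fold, adjusted p = 0.049973), an ADP receptor, whose call was lost in 15 of 20 alternatives, single arrays left out among them (log2 difference -1.38 to -0.76, adjusted p up to 0.193). The P2ry14 call (1.40, adjusted p = 0.02) was lost without any of CD8 or CD4 Foxp3-positive replicates A and B (adjusted p up to 0.0907). Pde3b, which degrades cyclic AMP, was 3.1-fold higher in CD8 cells (1.63 ± 0.23, adjusted p = 0.00126).

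The same lineage comparison in control cells shared no array with the one above. There, 4636 genes (20.9%) were called, 2692 (12.1%) higher in CD8 and 1944 (8.76%) higher in CD4 cells, and 652 (2.94%) were at least 2-fold apart. At an unadjusted p under 0.05 it was 30.5%, 17.4% higher in CD8 and 13.1% higher in CD4 cells. Of the 534 genes higher in CD8 Foxp3-positive cells, 172 were also called higher in CD8 controls, 102 were called higher in CD4 controls and 260 were not called. The 172 were 32.2% of the 534 and 6.39% of the 2692. Of the 510 genes higher in CD4 Foxp3-positive cells, 196 were also called higher in CD4 controls, 56 were called the opposite way and 258 were not called. The 196 were 38.4% of the 510 and 10.1% of the 1944. The control arrays of different lineages correlated at 0.9758 to 0.9791 across genes, below every value for the Foxp3-positive arrays.

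**Figure D4:**
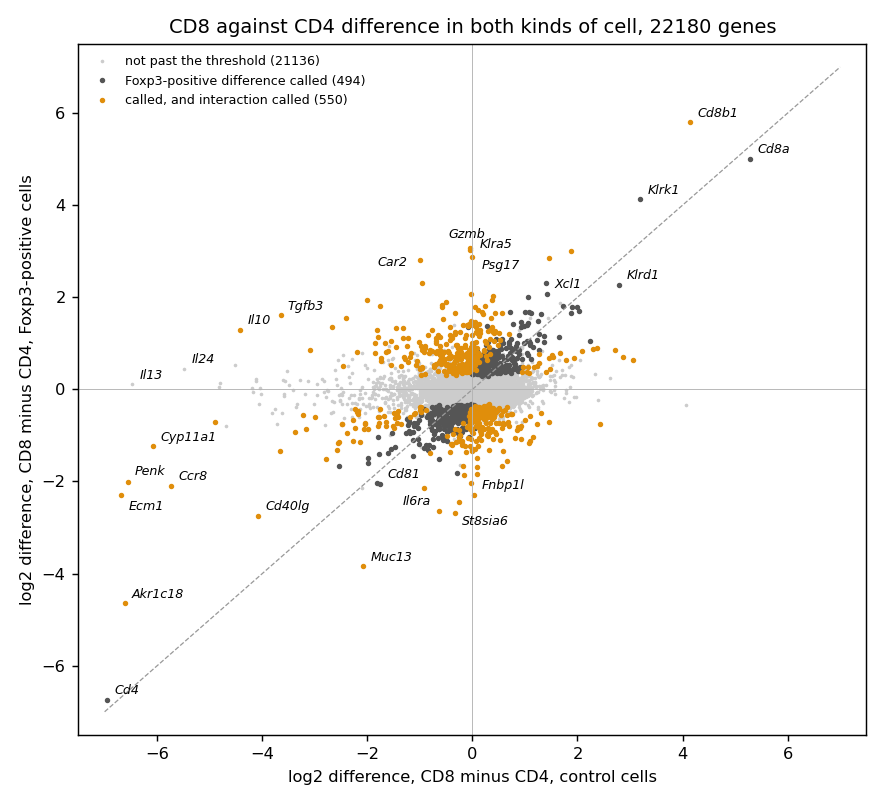
Log2 difference of CD8 minus CD4 cells for 22180 genes, in control cells (x axis) and in Foxp3-positive cells (y axis); the dashed line marks equal differences. Dark points are genes called in Foxp3-positive cells (494) and orange points those whose difference also changed between the cell kinds (550); Cd4 and Cd8a lie near the line, and Gzmb, Klra5 and Psg17 near 0 on the x axis.

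Whether a lineage difference changed between Foxp3-positive and control cells was tested by the interaction in the same model, which uses the Foxp3-positive arrays again. It was called for 2993 genes (13.5%), 1334 (6.01%) with a difference shifted toward CD8 and 1659 (7.48%) toward CD4 cells (26%, 11.3% and 14.7% at an unadjusted p under 0.05). Of the 534 CD8-high and 510 CD4-high genes, 294 and 256 had a called interaction, counts that share arrays with the comparison that chose the genes. Cd4 (0.21 ± 0.32, adjusted p = 0.75), Cd8a (-0.28 ± 0.43, adjusted p = 0.757), Klrd1 (-0.51 ± 0.28, adjusted p = 0.274) and Cd81 (-0.30 ± 0.27, adjusted p = 0.559) had none. Their lineage differences were called in control cells too, as were those of Klrk1 and Xcl1. Gzmb was at 13.21 and 13.25 in CD8 and CD4 controls, a difference of -0.04 there and an interaction of 3.10 ± 0.55 (adjusted p = 0.00247). Klra5 was at 5.47 and 5.52 in the controls (interaction 3.07 ± 0.30, adjusted p = 3.14e-05), and Psg17 at 5.44 and 5.45 (2.88 ± 0.36, adjusted p = 2.27e-04). The control lineages thus lay together at these 3 genes, at a high level for Gzmb and near 5.60 for the others. Car2 was lower in CD8 than in CD4 controls (-0.99, adjusted p = 0.0204) and higher among Foxp3-positive cells (interaction 3.78 ± 0.39, adjusted p = 4.88e-05). Runx3 was at 10.19 and 10.13 in the controls (interaction 1.18 ± 0.24, adjusted p = 0.00647), and its mean was lowest in the CD4 Foxp3-positive group.

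Some CD4-high genes were close together in the control lineages. St8sia6 (interaction -2.36 ± 0.28, adjusted p = 1.39e-04), Il6ra (-2.00 ± 0.21, adjusted p = 4.96e-05), Fnbp1l (-2.32 ± 0.17, adjusted p = 3.32e-06), Ccr6 (-1.93 ± 0.25, adjusted p = 3.14e-04) and Abi3bp (-2.02 ± 0.17, adjusted p = 1.2e-05) had control differences from -0.64 (Il6ra) to 0.09 (Ccr6). Others were farther apart in the controls. Ccr8 was at 4.08 in CD8 and 9.82 in CD4 controls, so its difference shrank from -5.74 to -2.09 (interaction 3.66 ± 0.20, adjusted p = 3.79e-07). Ecm1 was at 6.01 and 12.69 (4.38 ± 0.20, adjusted p = 9.55e-08), Penk at 5.48 and 12.04 (4.54 ± 0.22, adjusted p = 9.55e-08) and Akr1c18 at 4.68 and 11.30 (1.98 ± 0.36, adjusted p = 0.00309). Cd40lg followed the same pattern, with a control difference of -4.08 (1.33 ± 0.18, adjusted p = 3.74e-04). In all 5 genes the CD4 cells remained the higher group in both comparisons.

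**Figure D5:**
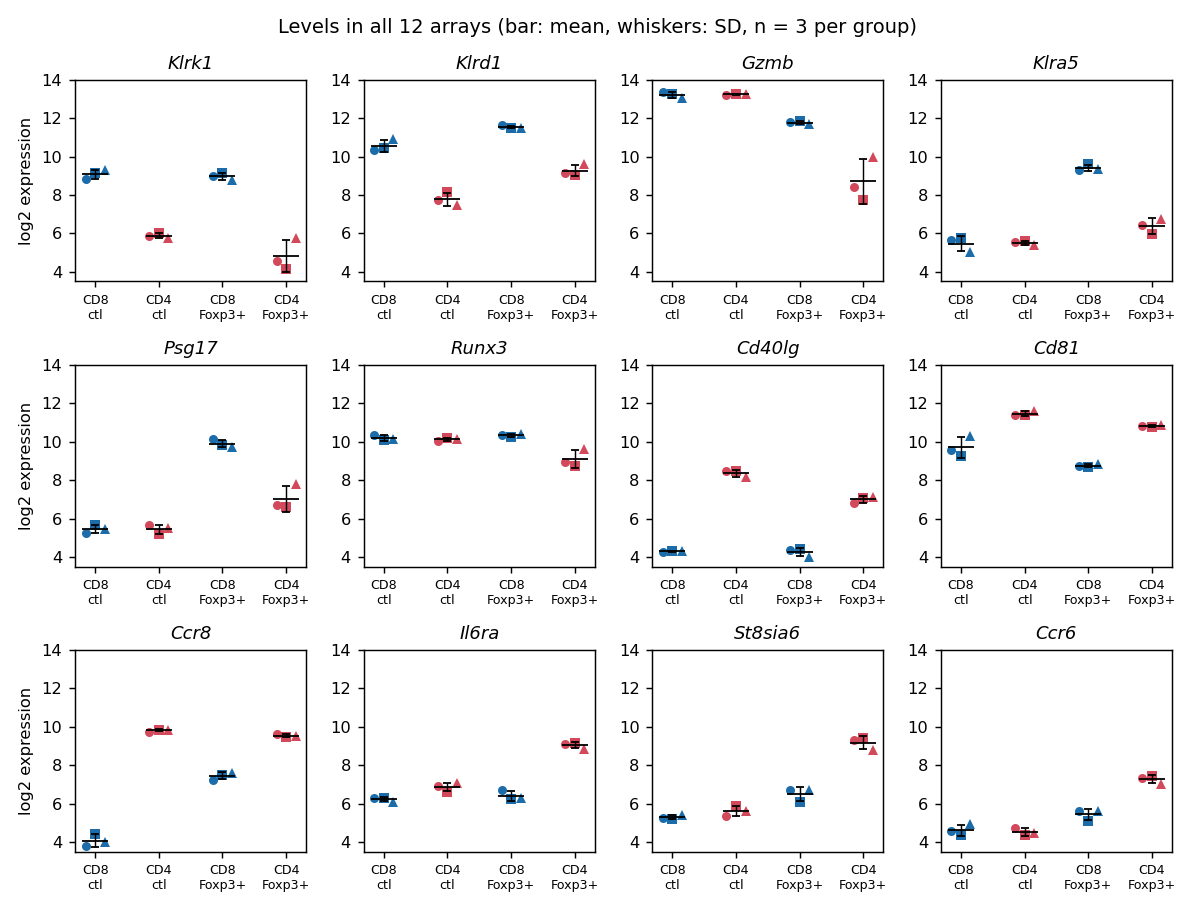
Log2 expression of 12 genes on all 12 arrays; points are replicates A to C, and bars and whiskers give the mean and SD of 3 arrays (ctl, control). Klrk1, Klrd1, Cd40lg and Cd81 separate the lineages in both cell kinds, Gzmb and Runx3 are lowest in CD4 Foxp3-positive cells (Gzmb is also lower in CD8 Foxp3-positive cells than in either control), and Klra5 and Psg17 are highest in CD8 Foxp3-positive cells.

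Type 2 and inhibitory cytokines had the largest interactions. Il13 stood at 5.36, 5.23 and 5.46 in CD8 and at 5.57, 5.07 and 5.08 in CD4 Foxp3-positive cells, all below 5.60, while the control means were 5.53 and 12.01 (interaction 6.59 ± 0.21, adjusted p = 2.57e-09). Il4 had control means of 4.43 and 8.94, and Foxp3-positive means of 5.02 ± 0.19 and 4.51 ± 0.21 (mean ± SD, n = 3; interaction 5.02 ± 0.21, adjusted p = 4.56e-08). Il24 (5.94 ± 0.35, adjusted p = 6.89e-07) and Il1r2, the IL-1 decoy receptor (4.93 ± 0.19, adjusted p = 2.58e-08), showed the same pattern of a bright CD4 control group alone. Il10 changed direction, with control means of 5.92 and 10.34 and the CD8-high difference described above among Foxp3-positive cells (interaction 5.72 ± 0.42, adjusted p = 3.61e-06). Tgfb3 also changed direction, with control means of 5.80 and 9.46 (interaction 5.26 ± 0.34, adjusted p = 1.27e-06). Asb2, a ubiquitin ligase subunit, stood at 8.73 ± 0.11 and 8.67 ± 0.35 in Foxp3-positive cells and at 6.25 and 11.08 in controls (4.88 ± 0.23, adjusted p = 9.55e-08). Cyp11a1, which starts steroid synthesis, had control means of 5.66 and 11.73 (4.83 ± 0.15, adjusted p = 2.57e-09), and its interaction was 3.27 when its clusters were averaged.

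Interactions toward CD4 cells were smaller. Cmah, which modifies sialic acid, was higher in CD8 controls (10.14 against 7.72) and lower in CD8 Foxp3-positive cells (7.58 ± 0.33 against 8.33 ± 0.25, mean ± SD, n = 3; -0.75, adjusted p = 0.0402). Its interaction was -3.17 ± 0.27 (adjusted p = 1.12e-05). Galnt3, a glycosyltransferase (-2.63 ± 0.18, adjusted p = 1.98e-06), and Gzmk, a granzyme of memory CD8 cells (-2.37 ± 0.28, adjusted p = 1.56e-04), had their highest group mean in CD8 controls (9.37 and 8.31). Il18r1, the IL-18 receptor, was higher in CD8 cells in both comparisons, by 3.06 in controls and 0.63 in Foxp3-positive cells (-2.43 ± 0.23, adjusted p = 2.4e-05). Klf2 (-2.24 ± 0.24, adjusted p = 7.34e-05) and Car5b, a mitochondrial carbonic anhydrase (-2.24 ± 0.26, adjusted p = 1.13e-04), were higher in CD8 controls but in CD4 Foxp3-positive cells.

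Gene lists were counted in the same way. Over all genes, 12.1% were called higher in CD8 and 8.76% higher in CD4 controls. Interactions were called toward CD8 for 6.01% and toward CD4 for 7.48% of all genes. Of 38 interferon-stimulated genes, 33 were called higher in CD4 controls and 0 in CD8 controls (34 and 0 at an unadjusted p under 0.05, median -1.48). Among Foxp3-positive cells Oas3 alone was called higher in CD8 and Ifih1 alone higher in CD4 cells, 5.26% together against 4.71% of all genes. At an unadjusted p under 0.05 it was 9 and 3, and the median was 0.12. The interaction was called by limma toward CD8 for 31 of the 38 and toward CD4 for 0 (35 and 0 unadjusted). Oas3 stood at 7.22, 7.45 and 7.50 in CD8 and at 6.62, 6.23 and 6.52 in CD4 Foxp3-positive cells (0.94 ± 0.12, adjusted p = 5.79e-04). The Ifih1 call (-0.46 ± 0.12, adjusted p = 0.0465) was lost without any single Foxp3-positive array. Of the 22 helper cytokines, 15 were called higher in CD4 controls (median -1.41), and 12 had interactions toward CD8 and 1 toward CD4 cells. Of the 39 cell cycle genes, 26 were called higher in CD8 and 2 in CD4 controls (median 0.49), and 22 had interactions toward CD4 cells and 0 toward CD8 cells (28 and 3 at an unadjusted p under 0.05). For the 20 γ-chain and STAT5 genes, 12 were called higher in CD4 controls, and 10 had interactions toward CD8 cells. The NK-type list kept its direction, with 9 called higher in CD8 and 1 in CD4 controls. Its median was 0.16 in controls and 0.82 in Foxp3-positive cells. The interaction was called toward CD8 for 4 of its 27 genes, Klra5 and Cd244a among them, and toward CD4 for 0. At an unadjusted p under 0.05 it was 7 and 1.

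Markers of other cells that the cultures or sorts could hold were measured alongside. The mean level of 19 dendritic cell markers ranged from 6.33 to 6.51 over CD8 and from 6.32 to 6.58 over CD4 Foxp3-positive arrays, and Cd80 alone was called, higher in CD4 cells (-1.12 ± 0.15, adjusted p = 6.26e-04). Of 14 macrophage and monocyte markers (5.26 to 5.55 against 5.12 to 5.24) and 5 NK and γδ T cell markers (6.03 to 6.24 against 5.62 to 5.76), 0 passed limma's test. At an unadjusted p under 0.05, 6 (42.9%) and 2 (40%) were higher in CD8 cells, shares above the 8.09% of all genes. Fcer1g, an NK cell signalling chain, stood at 8.17 ± 0.34 and 6.78 ± 0.19 (mean ± SD, n = 3), a difference of 1.39 ± 0.43 (adjusted p = 0.102). It was called in 3 of 20 alternatives, among them the fit to the 6 Foxp3-positive arrays alone. The macrophage and monocyte level and the NK and γδ level were thus higher on every CD8 array than on any CD4 array. All NK and γδ markers but Sox13 also belong to the NK-type receptor list. Their level is therefore drawn largely from the same genes and is not a separate observation. Whether NK or γδ T cells had a part in the NK-type result was not tested. B cell markers ranged from 5.81 to 5.90 in CD8 and from 5.69 to 5.76 in CD4 cells, also without overlap. Of these, 2 of 10 (20%) were called higher in CD8 cells, against 2.41% of all genes. Cd79b, a chain of the B cell receptor, stood at 8.58, 8.33 and 8.50 against 6.74, 6.64 and 7.12 (1.64 ± 0.15, adjusted p = 5.44e-05), while its partner Cd79a lay at 5.47 ± 0.21 and 5.51 ± 0.05 (mean ± SD, n = 3; adjusted p = 0.942). The other was Ighm (0.37 ± 0.10, adjusted p = 0.0468), a call lost without any single Foxp3-positive array but CD4 replicate C and under several other settings. Clusters that carry Ighm among several symbols were not used for this gene and were farther apart. The cluster with Ighg3 and Ighv1-47 stood at 11.32 against 10.22 (1.10 ± 0.22, limma adjusted p = 0.0233 over clusters without a single symbol). That with Ighv1-54 and Igkv1-135 stood at 10.46 against 9.39 (1.07 ± 0.20, adjusted p = 0.0171). The 5 red cell and platelet markers averaged between 4.76 and 4.84 on all 6 arrays, and 0 passed limma's test, adjusted or not.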

How the data were processed

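The deposited values are log2 expression per transcript cluster. By the submitters' processing notes, the authors used RMA in Affymetrix Expression Console. Not given in the sources used here are its version, the annotation and the genome build. RMA gives the probe values of all arrays one distribution before they are combined per cluster, so a change in total RNA per cell would not show. The array medians of the deposited values ranged from 5.23 to 5.33. Of 34365 clusters, 23521 had 1 gene symbol in the platform annotation, and the brightest cluster over 12 arrays stood for each of 22180 genes. A linear model with 4 group means was fitted to all 12 arrays with lmFit and eBayes (limma 3.58.1, R 4.3.3; 8 residual and 4.56 prior degrees of freedom). P-values were two-sided, adjusted by Benjamini-Hochberg over all genes, with a threshold of 0.05. The model was tested on simulated data. The members and the 29 gene lists were chosen with earlier results of these data known, so lists are described by counts and medians and not tested. Genes named by rule were the coreceptors, Klrk1, Cd40lg and Foxp3, the 12 largest differences each way (adjusted p under 0.05, higher mean at least 5.60, no overlap of arrays), the 8 largest interactions each way, and from each list the 3 largest called members and the brightest uncalled one. Other genes were named after their values were seen. Probes can read near-identical copies, as in granzyme, killer lectin-like receptor and interferon gene families. Replicate letters were not treated as pairs, since same-letter Foxp3-positive arrays of the lineages deviated together by only r = 0.039 to 0.099 across genes. For control arrays of the lineages it was 0.021 to 0.094. Between Foxp3-positive and control arrays it was 0.054 to 0.137 within CD8 and -0.102 to 0.012 within CD4 cells. The labels give no scan date or slide, and no batch was tested.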

Additional observations from a re-analysis of the deposited data

Results flagged for a closer look

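The results below differ between Foxp3-positive and control cells by the interaction test, in log2 units of the CD8 minus CD4 difference in Foxp3-positive cells minus that in controls (all adjusted p under 0.05). Among genes higher in CD8 Foxp3-positive cells, the interaction was 1.66 for Cd8b1, 3.10 for Gzmb, 3.07 for Klra5, 1.13 for Atp8b4, 2.88 for Psg17, 1.40 for Cd244a, 3.78 for Car2 and 3.25 for Gzmc. Among those higher in CD4 Foxp3-positive cells it was positive for Cd40lg (1.33), Akr1c18 (1.98), Ecm1 (4.38) and Ccr8 (3.66), whose control lineages lay farther apart. It was -1.76 for Muc13, -2.36 for St8sia6, -2.00 for Il6ra, -2.32 for Fnbp1l, -1.21 for Il17rb and -2.02 for Abi3bp, whose Foxp3-positive lineages lay farther apart.

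The largest shifts toward CD8 cells were 6.59 for Il13, 5.94 for Il24, 5.72 for Il10, 5.26 for Tgfb3, 5.02 for Il4, 4.93 for Il1r2, 4.88 for Asb2 and 4.83 for Cyp11a1. The largest toward CD4 cells were -3.17 for Cmah, -2.63 for Galnt3, -2.43 for Il18r1, -2.37 for Gzmk, -2.24 for Klf2 and -2.24 for Car5b. Among 572 other list members, 224 (39.2%) had a called interaction, 146 of them positive, where all genes gave 13.5%. The lists were chosen with earlier results of these data known, so the gap between these shares is a description and not a result about the lists.

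Clusters without a gene symbol, which the comparisons above left out, also held called differences as large as those of named genes, and the 2 largest are given here. Cluster 17520624 stood at 5.84 in CD8 and 9.31 in CD4 Foxp3-positive cells (-3.47 ± 0.31, adjusted p = 5.69e-05), against 4.77 and 4.62 in controls. Cluster 17289632 stood at 5.56 and 8.47 (-2.92 ± 0.20, adjusted p = 7.34e-06), against 4.37 and 4.58.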

How the results depend on the processing

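Each of 20 alternatives changed 1 choice. The number of genes called between Foxp3-positive lineages was 1044 and lay from 674 (without CD8 Foxp3-positive replicate B) to 1414 (dim genes filtered out, 11813 tested). With only the 6 Foxp3-positive arrays it was 808, in a fit that lost 11 calls of named genes. It was 989 with a replicate block, 908 of them shared. The same-letter correlations described above were weak, which cannot show that the letters pair nothing. Leaving out 1 array gave 674 to 1145 genes called, 341 to 583 higher in CD8, 333 to 562 higher in CD4 and 196 to 267 at least 2-fold apart. Controls gave 3588 to 4573 and the interaction 2253 to 3158 called genes. Of 133 called differences of named genes, 107 kept their call under every alternative that could be run, 26 lost it in some and 0 reversed. Of 37 differences without a call, 10 gained one in some alternative. They were Cd68 (7 alternatives), Fcer1g and Ltb (3 each), Gbp7, Stat4 and Tnfrsf9 (2 each), and Ccl5, Cd3e, Lrrc32 and Srebf2 (1 each).

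Differences without a call changed sign for Bcl2 (0.00, clusters averaged), Foxp3 (-0.05) and Il2ra (-0.02) with repeated quantile normalization, and when single Foxp3-positive arrays were left out. The latter, with their range over single arrays left out, were Cd79a (-0.15 to 0.06) without CD8 replicate C, Cxcr4 (-0.11 to 0.19, with -0.11 and -0.01) without CD4 or CD8 replicate B, Eomes (-0.31 to 0.12, with 0.12 and 0.02) without CD4 or CD8 replicate A, Gapdh (-0.01) without CD4 replicate B, Ifng (-0.24 to 0.07, with 0.07 and 0.03) without CD4 replicate A or CD8 replicate C, Il2ra (-0.00) without CD8 replicate A, Itga2b (-0.15 to 0.00) and Slamf6 (-0.21 to 0.04) without CD8 replicate B, and Myc (-0.07 to 0.05, with 0.02 and 0.05) without CD4 or CD8 replicate C. The causes were not tested. Detection calls were not used here, so signal near 5.60 limits folds of dim genes.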

Other observations

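Some genes that differed at least 2-fold between the Foxp3-positive lineages lay near each other, though most did not. In the RefSeq gene order, 33 of 128 placed CD8-high genes had another within 5 measured genes, in 14 groups, and 16 of 95 CD4-high genes did, in 8 groups. These counts are a description, with no test, since neighbours can be close copies read by the same probes. The largest group held Klrd1, Klrk1, Klrc3, Klrc2 and Klrc1 in the natural killer gene complex. The next held Ifi208, Ifi209, Ifi213 and Ifi214, members of a family of intracellular DNA sensors, which the interferon list did not contain. Ifi208 was the farthest apart, with CD8 arrays up to 8.39 and CD4 arrays from 5.75 to 7.03 (1.89 ± 0.31, adjusted p = 0.00295). Ifi209 (1.13 ± 0.25, adjusted p = 0.019), Ifi213 (1.52 ± 0.34, adjusted p = 0.02) and Ifi214 (1.28 ± 0.27, adjusted p = 0.0139) were also higher in CD8 cells, with CD8 arrays above every CD4 array. The latter 3 lost their calls without CD8 replicate C or CD4 replicate A or B, and Ifi209 and Ifi213 also without CD8 replicate A (adjusted p up to 0.0898).

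Smaller neighbour pairs higher in CD8 cells were the calcium-binding S100a4 (1.45 ± 0.16, adjusted p = 2.19e-04) and S100a6 (1.66 ± 0.18, adjusted p = 1.81e-04), and the cathepsin inhibitor-like genes Ctla2a (1.19 ± 0.15, adjusted p = 6.07e-04) and Ctla2b (1.29 ± 0.14, adjusted p = 1.57e-04). Among CD4-high pairs were Gucy1a1 (-1.13 ± 0.18, adjusted p = 0.00251) and Gucy1b1 (-1.06 ± 0.13, adjusted p = 5.2e-04), the subunits of the nitric oxide receptor guanylate cyclase. Another was Ifitm2 (-1.38 ± 0.31, adjusted p = 0.0219) and Ifitm3 (-1.67 ± 0.28, adjusted p = 0.00377), antiviral membrane proteins. The Ifitm2 call was lost without CD8 replicate A or C or CD4 replicate A or B (adjusted p up to 0.0923).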
